A study of Mus musculus with 6 samples.

Results

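Integrins are receptors made of an alpha and a beta chain with which cells hold on to matrix or to other cells, and laminins are the trimeric proteins of the basement membrane to which several of them bind. The genes described here are 38 integrin and laminin rows of the deposited gene table, of 16763 rows in all. They were matched by symbol: alpha and beta integrin chains (Itga and Itgb) and laminin alpha, beta and gamma chains (Lama, Lamb and Lamc). Earlier results of these data were known when the members and the lists by role were chosen. The rows come from RNA of tumors that 4T1 cells, a mammary carcinoma line of BALB/c mice, formed in BALB/c mice given as male. One group is labelled only as the model and the other was treated with DMDD liposomes; both had 3 libraries, and both carried 4T1 tumors. DMDD is named only by its abbreviation, dose, schedule and age are not stated, and the labels name no vehicle or empty liposome for the model group. The sample descriptions say rat, while the organism, strain and gene symbols are those of mouse. Nothing says which animal gave which library, so p-values speak of the spread among the libraries, part or all of which may be technical.

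In epithelia, the alpha 6 and beta 4 chains form the integrin of the hemidesmosome, the junction that ties keratin filaments to the basement membrane, and its ligand there is laminin-332, whose alpha and beta chains are encoded by Lama3 and Lamb3. On leukocytes, the beta 2 chain (Itgb2) pairs with the alpha L, M, X and D chains, and the beta 7 chain (Itgb7) with alpha 4 and alpha E; these receptors bind adhesion molecules on vessel walls and other cells. The beta 1 chain (Itgb1) is shared by most cell types and by most alpha chains. By role the rows fell into 5 epithelial integrins, 8 leukocyte integrins, 7 integrins that bind the RGD peptide or belong to platelets, 5 alpha chains of stroma and muscle, Itgb1 alone, the 2 laminin-332 chains named above and 8 other laminin chains. Itgbl1 encodes a secreted integrin-like protein and Itgb2l a beta-2-like chain, and neither is counted in those roles.

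Libraries held 13037500 to 15616840 counts, at which 3 counts stood for 0.193 to 0.230 CPM (counts scaled to library size, with TMM factors). Itgad, with 0 to 2 counts, and Itgb2l, with 0 to 5, did not pass the filter on low counts, which left 36 of the 38 rows among 12891 genes tested. Epithelial tumor cell markers were present in every library: all 14 passed the filter, and their summed level was 4552 to 7518 CPM in model, against 4110 to 5182 in DMDD liposome. Model replicate 2 stood apart in skin keratinocyte genes, whose 13 listed members in the table had a summed level of 263 CPM in it (16.7 to 20.6 CPM in the other 5 libraries). Model replicate 1 lay near the DMDD liposome libraries for several of the genes below, so results are also given without each of these libraries where they turn on them.

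Promoter windows are shown here for the members that stood furthest apart between the groups, so that chains that were lower can be set beside chains that were higher. Of the 10 members with an unadjusted p under 0.05, 5 had a window in the RefSeq table (build GRCm38.p6), as did 25 of the 38 members; Itga6, Itgb2, Itgb4, Lama1 and Lama3 had none. Each window runs from 250 bases before to 50 bases after an annotated start, 5′ to 3′ on the gene's strand. Capitals mark matches, on either strand, to GGGCGG (the GC box), CACCTG (an E-box) or GGAAGT (the core of ETS family sites); TGANTCA (AP-1) and TATAAA were searched too and matched none of those printed. Adjoining matches would run together in capitals, but none printed here touch. Lamb3 has another annotated start upstream, whose window held no match to any of the motifs.
Lamb3 (chr1:193301993-193302292, plus strand): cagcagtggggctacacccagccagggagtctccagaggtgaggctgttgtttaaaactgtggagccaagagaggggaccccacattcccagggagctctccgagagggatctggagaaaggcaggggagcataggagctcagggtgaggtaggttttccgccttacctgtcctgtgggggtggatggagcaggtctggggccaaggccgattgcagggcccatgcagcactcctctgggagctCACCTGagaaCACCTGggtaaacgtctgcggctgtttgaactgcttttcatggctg
Lama5 (chr2:180225810-180226109, minus strand): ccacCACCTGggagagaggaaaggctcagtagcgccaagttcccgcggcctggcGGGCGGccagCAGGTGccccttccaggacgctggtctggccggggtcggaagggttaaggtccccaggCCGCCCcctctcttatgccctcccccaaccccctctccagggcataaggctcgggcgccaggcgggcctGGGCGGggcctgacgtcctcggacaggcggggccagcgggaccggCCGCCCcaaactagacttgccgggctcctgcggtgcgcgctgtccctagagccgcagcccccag
Itga2 (chr13:114932051-114932350, minus strand): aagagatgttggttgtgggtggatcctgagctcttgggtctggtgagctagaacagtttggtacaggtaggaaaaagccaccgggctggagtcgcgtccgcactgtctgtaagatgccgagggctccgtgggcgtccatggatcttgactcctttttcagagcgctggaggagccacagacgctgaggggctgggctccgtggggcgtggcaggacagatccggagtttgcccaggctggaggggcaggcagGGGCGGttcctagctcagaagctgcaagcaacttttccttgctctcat
Itga4 (chr2:79255176-79255475, plus strand): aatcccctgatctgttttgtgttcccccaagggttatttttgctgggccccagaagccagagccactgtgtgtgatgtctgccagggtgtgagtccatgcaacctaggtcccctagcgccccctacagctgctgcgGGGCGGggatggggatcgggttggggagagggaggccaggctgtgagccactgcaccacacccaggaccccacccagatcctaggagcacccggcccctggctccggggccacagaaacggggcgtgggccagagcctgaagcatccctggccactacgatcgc
Itgb7 (chr15:102231886-102232185, minus strand): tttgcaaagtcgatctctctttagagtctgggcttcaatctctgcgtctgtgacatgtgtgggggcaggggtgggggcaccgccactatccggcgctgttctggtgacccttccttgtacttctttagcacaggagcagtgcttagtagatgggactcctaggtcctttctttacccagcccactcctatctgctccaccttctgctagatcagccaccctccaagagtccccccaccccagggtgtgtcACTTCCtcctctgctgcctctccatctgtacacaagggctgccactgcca
The first 3 belong to chains with a lower level in DMDD liposome and the last 2 to chains with a higher level. Lamb3 held 2 E-box matches, one on each side of its start, and Lama5 held 2 together with 4 GC boxes. Itga2 and Itga4, which differed between the groups in opposite directions, each held 1 GC box. Itgb7 held 1 ETS core, on the opposite strand, at its annotated start. Over all 32817 windows of the table, 20.2% held CACCTG, 35.6% GGGCGG, 23.8% GGAAGT, 7.8% TGANTCA and 13.6% TATAAA. Among the 28 windows of members the counts were 8, 13, 11, 3 and 0 in the same order. A match is a run of letters and not a bound site.

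The comparison of DMDD liposome with model tumors asked how the treated tumors differed in their transcripts. Epithelial and leukocyte chains lay on opposite sides: all 5 epithelial integrins and both laminin-332 chains had a negative log2 fold change (DMDD liposome over model), and 6 of the 7 tested leukocyte integrins a positive one. The median log2 fold change was -0.49 for epithelial integrins, -1.15 for the laminin-332 chains and 0.61 for leukocyte integrins, against 0.01 over all 12891 genes. Over the 36 tested members it was 0.02, with 18 higher and 18 lower (51.2% and 48.8% of all genes), so the members as a whole had no common direction. In bulk tumor RNA, fewer cells of a type and less RNA per cell cannot be told apart.

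No member passed edgeR's quasi-likelihood test after Benjamini-Hochberg adjustment over all genes (0 of 36; background 0.0% of genes), and the smallest adjusted p among them was 0.603, for Itga6. At an unadjusted p under 0.05 edgeR found 10 of the 36, with 4 higher and 6 lower, where 4.34% of all genes were higher and 3.31% lower. This count varied with the libraries used, as did the count over all genes. It was 3 higher and 3 lower without model replicate 3 (4.79% of all genes in either direction, against 7.65% with all libraries). It was 4 higher and 2 lower without DMDD liposome replicate 1 (3.66%). Without model replicate 1 it was 6 higher and 6 lower (2150 of 13159 genes), and without model replicate 2 it stayed at 4 and 6 (724 of 13075). Without DMDD liposome replicate 2 it was 4 and 3 (1140 of 13132), and without replicate 3 of that group 4 and 4 (852 of 13054). In the fit to all libraries the 4 higher were Itga4, Itgb2, Itgb7 and Lama1, and the 6 lower were Itga2, Itga6, Itgb4, Lama3, Lama5 and Lamb3. DESeq2's Wald test called 3 members at an adjusted p under 0.05, Itga6 and Itgb4 lower and Itga4 higher, against 0.408% of the genes to which it gave an adjusted p. The authors' deposited table called the same 3, against 0.346% of its genes; it rests on the same counts, and the submitters' processing notes name DESeq2, so it adds no separate evidence. For 9 members the levels of the 3 model and the 3 DMDD liposome libraries did not overlap, 5 higher and 4 lower, against 7.21% and 5.66% of all genes. Without model replicate 1, DESeq2 called 10 members (Itga2, Itga4, Itga6, Itgam, Itgb2, Itgb4, Itgb5, Lama3, Lamb3 and Lamc3) where it called 6.31% of all genes, so the number of members that passed depended on that library.

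**Figure D1:**
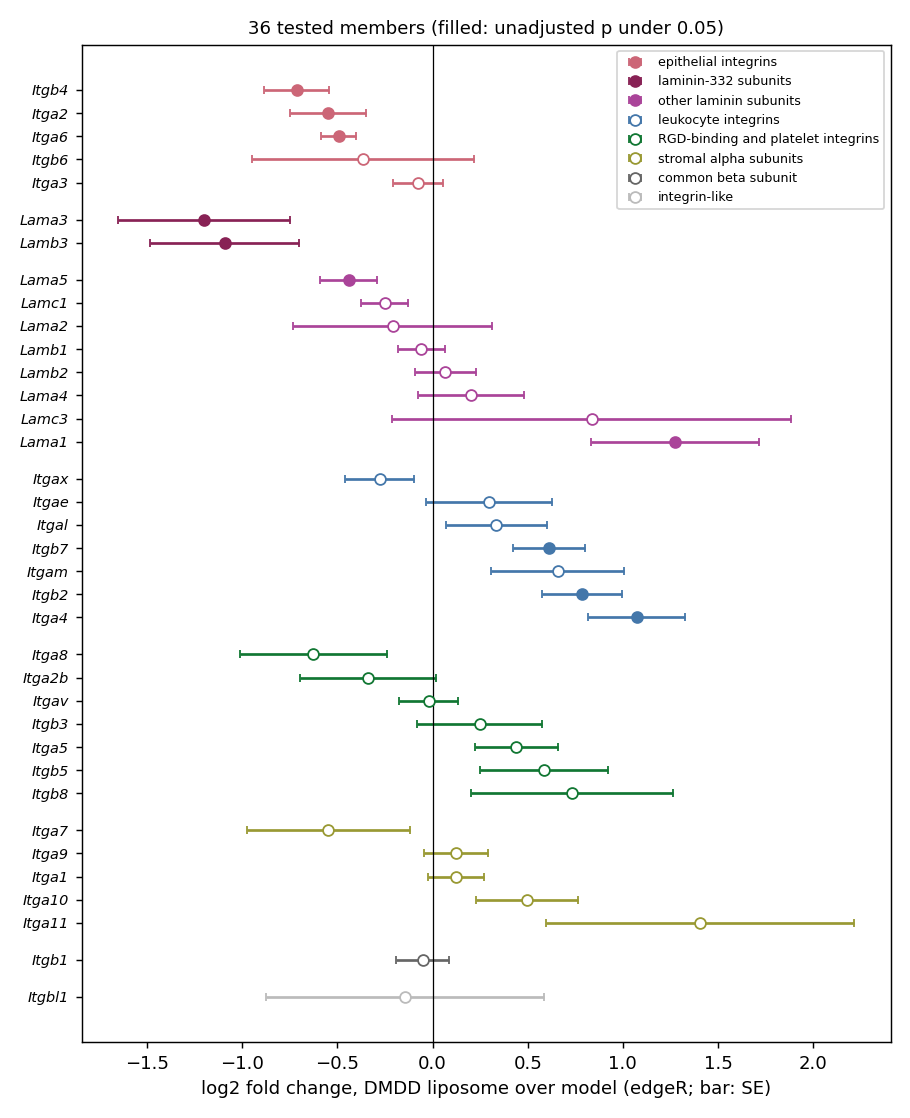
Log2 fold change of DMDD liposome over model for the 36 tested members, grouped by role; bars are standard errors from edgeR, and filled points have an unadjusted p under 0.05. All 7 epithelial integrin and laminin-332 points lie left of 0, and 6 of 7 leukocyte integrin points lie right of it.

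Itga6, the alpha chain of the hemidesmosome, had the smallest p of all members. Model libraries, in the order of replicates 1 to 3 as throughout, held 191, 180.1 and 204 CPM of it, and those of DMDD liposome 132, 134 and 142. The groups did not overlap, and the lowest model library was well above the highest DMDD liposome library. The log2 fold change was -0.49 ± 0.09 (SE; unadjusted p = 0.000921, adjusted p = 0.603 by edgeR), and it lay between -0.54 and -0.46 when any 1 library was left out. The authors' deposited table gave it an adjusted p of 0.0112, with rank 21 by p among all genes of that table. Itga6 did not share the split of the model group that most other epithelial chains showed.

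Itgb4, the only partner of which is alpha 6, measured 667, 801 and 828 CPM in model against 439.8, 389 and 570.4 in DMDD liposome. These groups did not overlap either, with model replicate 1 the lowest of its group and DMDD liposome replicate 3 the highest of its own. The log2 fold change was -0.71 ± 0.17 (unadjusted p = 0.0034, adjusted p = 0.626 by edgeR), with a range of -0.88 to -0.61 over the fits without 1 library. The adjusted p in the authors' deposited table was 0.0298. An unstranded count would also take in B230344G16Rik, a noncoding gene on the opposite strand that covers 7.66% of the annotated Itgb4 exon bases.

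Itga2, the alpha chain of a collagen receptor of epithelia and platelets, measured 98.3, 130.3 and 174 CPM in model against 86.1, 90.3 and 98.9 in DMDD liposome. Model replicate 1 lay just under the highest DMDD liposome library, so the groups overlapped. The difference of -0.55 ± 0.20 on the log2 scale (unadjusted p = 0.0255, adjusted p = 0.626 by edgeR) went to -0.33 without model replicate 3.

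Itga3, which with beta 1 binds laminins outside the hemidesmosome, was by far the most abundant epithelial alpha chain. It measured 1707, 1782 and 1493 CPM in model against 1434, 1682 and 1610.4 in DMDD liposome, and the groups overlapped widely. The log2 fold change was -0.08 ± 0.13. Itgb6, the partner of alpha V in epithelia, was near the detection limit, with 9, 20 and 32 counts in model and 8, 11 and 26 in DMDD liposome. Its log2 fold change of -0.37 ± 0.58 turned to 0.075 without model replicate 3. The epithelial list was therefore not uniform: Itga6, Itgb4 and Itga2 had an unadjusted p under 0.05, and Itga3 and Itgb6 did not.

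**Figure D2:**
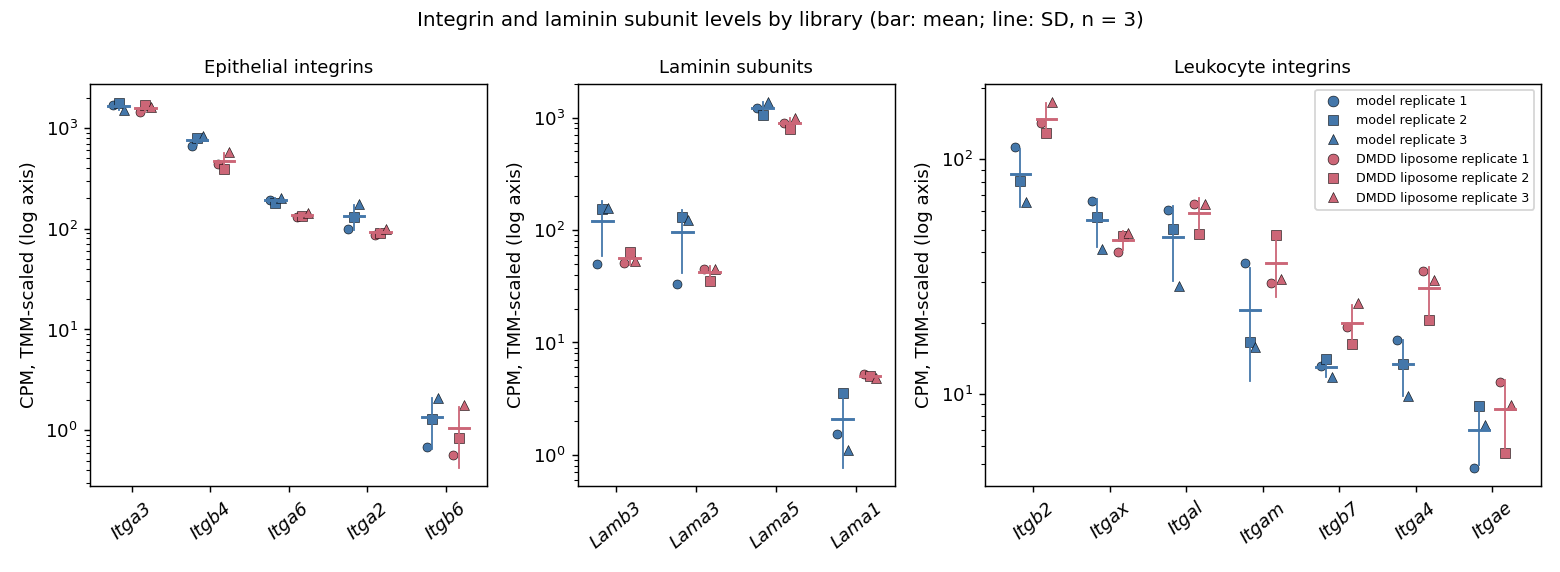
CPM (log axis) of the epithelial integrins, 4 laminin chains and the 7 tested leukocyte integrins in each library; symbols are libraries, horizontal bars group means and vertical lines the SD over 3 libraries. Model replicate 1 lies with the DMDD liposome libraries for Lama3 and Lamb3 but with the other model libraries for Itga6.

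Lama3 and Lamb3, the laminin-332 chains, had the largest median difference of the lists by role, and it was uneven within the model group. Lama3, the alpha chain, measured 33.2 CPM in model replicate 1 against 132 and 124 CPM in model replicates 2 and 3, and 45.0, 35.4 and 45.5 CPM in DMDD liposome. Model replicate 1 was the lowest of all 6 libraries, so the groups overlapped. Lamb3, the beta chain, was likewise lowest in model replicate 1, with 49.8, 152 and 157 CPM in model, beside 50.5, 64.3 and 53.6 CPM in DMDD liposome. Both chains thus had overlapping groups, with model replicates 2 and 3 above all other libraries.

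The log2 fold changes were -1.20 ± 0.45 for Lama3 (unadjusted p = 0.0309) and -1.09 ± 0.39 for Lamb3 (unadjusted p = 0.0244), both by edgeR. Without model replicate 1, Lama3 stood at -1.61 and Lamb3 at -1.46, both with an adjusted p of 0.0298 in edgeR; in that fit 0.851% of all genes passed. These 2 were the only members that edgeR called in any of the fits without 1 library. Without model replicate 2, the library with keratinocyte genes of the skin, Lama3 stood at -0.91 and Lamb3 at -0.89, with unadjusted p of 0.110 and 0.0831. Lama3 measured 124 CPM in model replicate 3 and 132 CPM in model replicate 2, and Lamb3 157 and 152 CPM. The skin keratinocyte genes of model replicate 3 summed to 20.6 CPM, the level of the libraries other than model replicate 2. The part of skin cells in the Lama3 and Lamb3 levels was not tested. Without model replicate 3, Lama3 and Lamb3 stood at -0.99 and -0.86, with unadjusted p of 0.0915 and 0.0795 by edgeR.

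The same split of the model group was present in the epithelial tumor cell markers. Summed over the list they came to 4552, 7518 and 6769 CPM in model against 4765, 4110 and 5182 in DMDD liposome. Of the 14, 12 were lower in DMDD liposome, and the list's median log2 fold change was -0.52. As centred means of log2 CPM, which are 0 at the average of the 6 libraries, the laminin-332 chains stood at -0.72, 1.08 and 1.05 in model and between -0.49 and -0.44 in DMDD liposome. The epithelial integrins stood at -0.05, 0.24 and 0.45 in model and at -0.41, -0.29 and 0.05 in DMDD liposome. The marker list stood at -0.11, 0.53 and 0.40 in model and at -0.31, -0.44 and -0.07 in DMDD liposome. The part of epithelial cell content in the lower integrin and laminin levels was not tested.

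**Figure D3:**
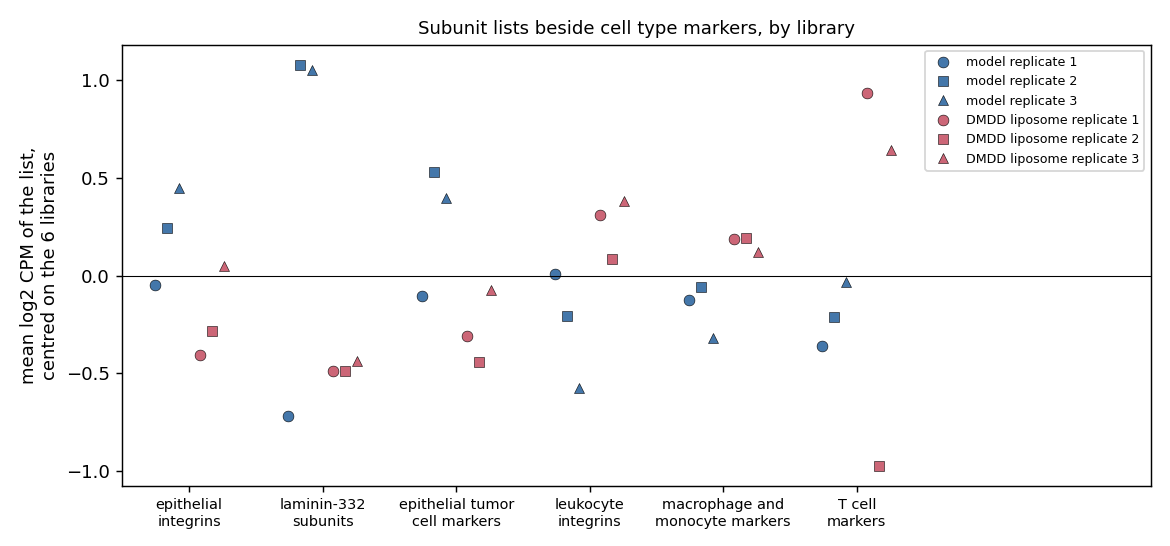
Mean log2 CPM of each list per library, centred on the 6 libraries, for 3 lists of subunits and 3 lists of cell type markers. The laminin-332 chains in model replicate 1 lie at -0.72, below the DMDD liposome libraries, and DMDD liposome replicate 2 is the lowest library for T cell markers at -0.97.

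Among the other laminin chains, Lama5 and Lamc1 belong with Lamb1 or Lamb2 to the laminins found under most epithelia and vessels. Lama5 measured 1213, 1050 and 1378 CPM in model against 893, 791 and 999 in DMDD liposome. The groups did not overlap, and its log2 fold change was -0.44 ± 0.15 (unadjusted p = 0.0202, adjusted p = 0.626 by edgeR). Lamc1 also did not overlap, at 618 ± 80.2 CPM in model against 519 ± 3.52 CPM in DMDD liposome (SD, n = 3 each), but its log2 fold change of -0.25 ± 0.12 had an unadjusted p of 0.0807 in edgeR. Lamb1, at 803 ± 81.9 CPM against 771 ± 54.5 CPM, and Lamb2, at 93.2 ± 20.3 CPM against 97.6 ± 4.22 CPM, differed by less than the SD of the model libraries.

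Lama1, the alpha chain of embryonic and some epithelial basement membranes, differed by the largest ratio among the laminin genes, at a low level. It had 20, 55 and 17 counts in model (1.53, 3.55 and 1.12 CPM) and 74, 66 and 71 in DMDD liposome (5.24, 4.99 and 4.84 CPM). The groups did not overlap, and the DMDD liposome libraries were close together. The log2 fold change was 1.27 ± 0.44 (unadjusted p = 0.0218, adjusted p = 0.626 by edgeR) and 1.91 without model replicate 2. Lama2 of muscle and Lama4 of vessels overlapped between groups, at log2 fold changes of -0.21 ± 0.52 and 0.20 ± 0.28, whose signs changed without 1 library (0.32 for Lama2 without model replicate 2, -0.096 for Lama4 without DMDD liposome replicate 2). Lamc3 had 60, 4 and 4 counts in model and 19, 36 and 72 in DMDD liposome; its log2 fold change of 0.84 ± 1.05 went to 3.48 without model replicate 1, the one model library with appreciable counts.

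Of the 7 tested leukocyte chains, Itga4, Itgb2 and Itgb7 had higher levels in every DMDD liposome library than in any model library; Itgam, Itgal, Itgae and Itgax overlapped between the groups and had an unadjusted p above 0.05. Itga4, which pairs with beta 1 or beta 7 to bind VCAM-1 and MAdCAM-1, measured 16.9, 13.4 and 9.78 CPM in model against 33.3, 20.5 and 30.5 in DMDD liposome. The groups did not overlap. The log2 fold change was 1.07 ± 0.26 (2.10-fold; unadjusted p = 0.00348, adjusted p = 0.626 by edgeR), between 0.88 and 1.28 without any 1 library, and the adjusted p in the authors' deposited table was 0.0440. The end of Itga4 overlaps Cerkl on the opposite strand over 8.04% of its annotated exon bases, and Cerkl had 0 to 4 counts in a library.

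Itgb2, the common chain of the leukocyte integrins, measured 113, 80.4 and 65.7 CPM in model against 142, 129 and 175 in DMDD liposome. All DMDD liposome libraries were above all model libraries, with model replicate 1 the nearest. The log2 fold change was 0.78 ± 0.21 (1.72-fold; unadjusted p = 0.00656, adjusted p = 0.626 by edgeR), and the adjusted p in the authors' deposited table was 0.0947. Itgb7, the beta chain of gut-homing lymphocytes, measured 13.2, 14.1 and 11.8 CPM in model against 19.3, 16.2 and 24.3 in DMDD liposome, again without overlap. It stood at a log2 fold change of 0.61 ± 0.19 (unadjusted p = 0.0126, adjusted p = 0.626 by edgeR).

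The alpha chains that pair with beta 2 overlapped between the groups, and Itgad was too scarce to test. Itgam, the alpha chain of the complement receptor of macrophages and neutrophils, measured 36.1, 16.6 and 15.8 CPM in model against 29.5, 47.4 and 30.7 in DMDD liposome, so that model replicate 1 lay inside the DMDD liposome range. Its log2 fold change of 0.66 ± 0.35 went to 1.15 without model replicate 1; a gene model that shares 68.7% of its annotated exon bases, Gm49368, had 4 to 22 counts, so the split of its reads is uncertain. Itgal, the alpha chain of the lymphocyte receptor LFA-1, measured 60.9, 50.1 and 28.8 CPM against 64.0, 48.0 and 64.1 CPM, with a log2 fold change of 0.33 ± 0.26 that went to 0.070 without model replicate 3 and to 0.57 without model replicate 1. Itgax, which marks dendritic cells and many tumor macrophages, measured 66.5, 56.4 and 41.5 CPM in model against 40.2, 47.2 and 48.2 in DMDD liposome. Its log2 fold change was -0.28 ± 0.18 (unadjusted p = 0.167 by edgeR), the one negative value among the 7, and it remained below 0 without any 1 library (-0.45 to -0.11). Itgae, the E-cadherin receptor of T cells and some dendritic cells, overlapped widely, at 4.83, 8.83 and 7.35 CPM against 11.3, 5.59 and 8.99 CPM (log2 fold change 0.30 ± 0.33, and 0.058 without DMDD liposome replicate 1).

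Marker lists of leukocytes differed in how they went with these chains. Macrophage and monocyte markers, all 16 of which were measured, summed to 3542, 2843 and 2167 CPM in model and to 4679, 3802 and 4072 CPM in DMDD liposome, without overlap; 12 of them were higher. T cell markers, 9 of 10 in the table and 7 of those higher, summed to 36.9, 38.6 and 45.8 CPM in model and to 104, 23.4 and 82.0 CPM in DMDD liposome. Of the DMDD liposome libraries, replicate 2 was lowest in T cell markers and also in Itga4, Itgal, Itgae, Itgb2 and Itgb7, while Itgam was highest in it. The summed level of neutrophil markers was 855 CPM in the same library against 538 to 660.4 CPM in the other 5, but 7 of the 9 tested were lower in DMDD liposome (median log2 fold change -0.49), and by the centred mean that library (0.23) lay level with model replicates 1 (0.23) and 3 (0.27). Dendritic cell markers were also lowest in that library, at 263 CPM against 699 to 1119 CPM in the other 5. B cell markers summed to 0.394 to 1.84 CPM, so that lineage was close to the floor. The deposited table held no gene at 0 in every library, so a marker without counts would be missing from it. Mast cell markers, with a median log2 fold change of -2.31 over 7 tested members, went the other way from Itgb7 and Itga4. They summed to 42.7, 134 and 121 CPM in model and to 23.2, 33.1 and 44.8 CPM in DMDD liposome. Model replicate 1 thus lay below DMDD liposome replicate 3, and model replicates 2 and 3 stood above all other libraries. The part of leukocyte numbers in the higher chain levels was not tested.

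Among the integrins that bind RGD motifs in fibronectin, vitronectin and latent TGF-beta, 0 of 7 had an unadjusted p under 0.05 by edgeR (7.65% of all genes). All 7 overlapped between groups, where 12.9% of all genes did not. In a list of 7, counts of 0 are near those shares. Itgb5, the beta chain of a vitronectin receptor, measured 513, 259 and 196 CPM in model against 566, 419 and 466 in DMDD liposome, or 0.59 ± 0.33 on the log2 scale, which went to 1.09 without model replicate 1. Itga5, the fibronectin receptor chain, stood at 0.44 ± 0.22 and went to 0.16 without DMDD liposome replicate 2. Itgav, the alpha chain that pairs with several of these beta chains, stood at -0.02 ± 0.16 and Itgb3, a chain of platelets, vessels and macrophages, at 0.25 ± 0.33. Itga2b of platelets, Itga8 of mesenchyme and Itgb8, an activator of latent TGF-beta, stood at -0.34, -0.63 and 0.73, each less than 2 SE from 0. The list's median of 0.25 changed sign without model replicate 2 (-0.061) and was 0.51 without model replicate 1 and 0.09 without DMDD liposome replicate 2.

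Of the stromal and muscle alpha chains, Itga10, a collagen receptor of cartilage, did not overlap between groups, with 42, 41 and 39 counts in model and 59, 55 and 52 in DMDD liposome. It stood at 0.50 ± 0.27 on the log2 scale (unadjusted p = 0.104 by edgeR), and 33.5% of its annotated exon bases are shared with another gene model, Gm42957. Itga11, a collagen receptor of fibroblasts, had 6, 41 and 18 counts against 46, 97 and 14, a log2 fold change of 1.40 ± 0.81 that went to 0.53 without DMDD liposome replicate 2, the library highest for fibroblast markers (11777 CPM against 4264 to 8076 CPM in the other 5). Itga1, Itga7 and Itga9, which serve collagen, laminin of muscle and tenascin, stood at 0.12, -0.55 and 0.12; Itga7 went to -0.11 without model replicate 3 and to -0.92 (unadjusted p = 0.00933 by edgeR) without model replicate 2. Itgb1 stood at -0.05 ± 0.14, with 1419 ± 119 CPM in model against 1368 ± 157 in DMDD liposome. Itgbl1, the integrin-like gene, had 6 to 72 counts and stood at -0.14 ± 0.73 on the log2 scale (1.19 when model replicate 2 was left out).

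Levels per length, as the authors' FPKM (fragments scaled to gene length and library size), can be compared between chains. Itgb1 was the most abundant member, at 369 ± 28.8 FPKM in model and 360 ± 34.8 FPKM in DMDD liposome (SD, n = 3 each), followed by Itga3 at 314 ± 32.8 and 301 ± 18.9 FPKM; in model replicate 2 Itga3 was the higher of them (339.7 against 336.5 FPKM), so their order did not hold in every library. Lamb1, Itgb5, Itgb4 and Lama5 were also abundant, with means between 73.6 and 144 FPKM. Itgb2 was the most abundant leukocyte chain, at 28.9 ± 8.36 FPKM in model and 50.4 ± 8.38 FPKM in DMDD liposome, and Itga4 was among the scarcer ones, at 1.36 ± 0.380 and 2.90 ± 0.740 FPKM. The 10 scarcest members, Lama1, Lama2, Lamc3, Itga10, Itga11, Itgb6, Itgb8, Itgbl1, Itgb2l and Itgad, had means under 1 FPKM in both groups. Of the laminin-332 chains, Lamb3 stood at 23.1 ± 11.6 FPKM in model and Lama3 at 8.87 ± 5.03.

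**Figure D4:**
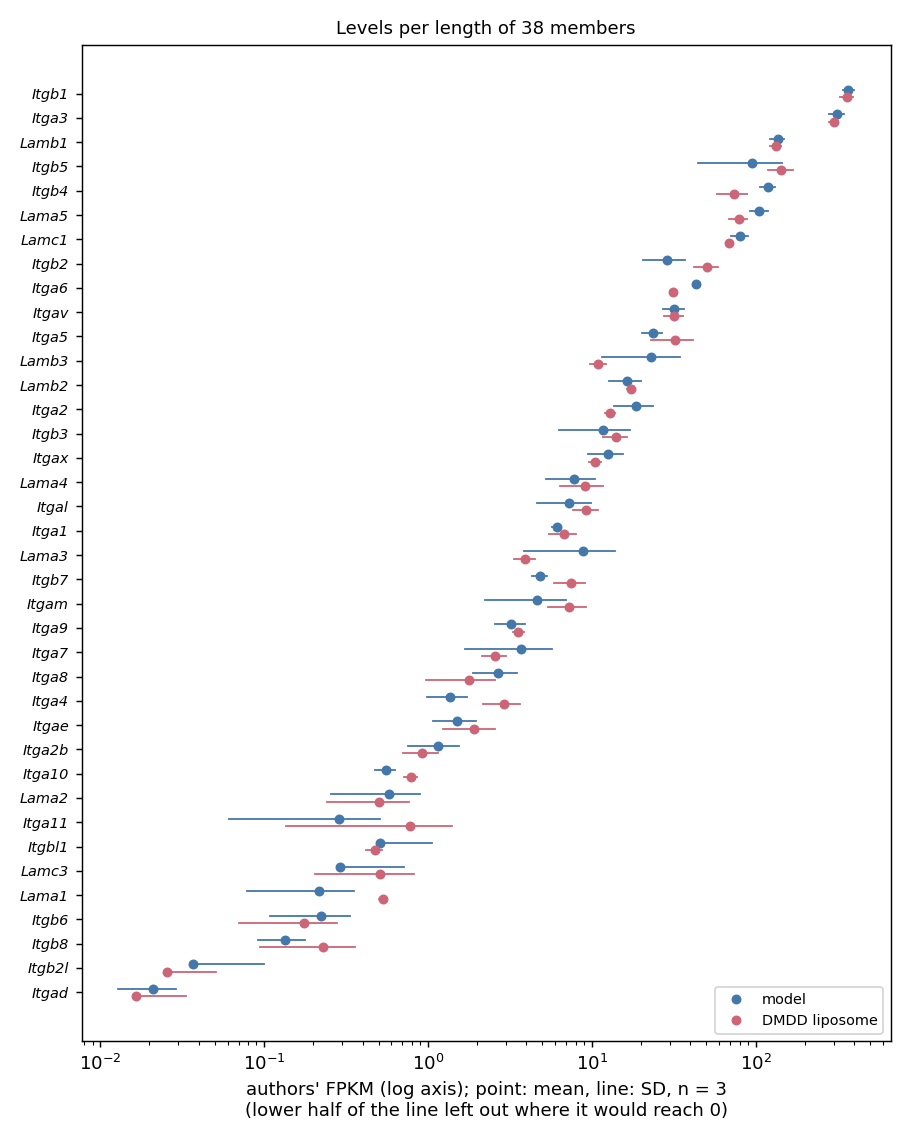
Authors' FPKM (log axis) of the 38 members, ordered by the mean over 6 libraries; points are group means and lines the SD over 3 libraries. Itgb1 and Itga3 lie at the top and Itgb2l and Itgad at the bottom.

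Ratios within a library set partner chains against each other. The summed FPKM of the 4 alpha chains that pair with beta 2 was 0.849, 0.896 and 0.783 of Itgb2 in model and 0.531, 0.647 and 0.465 in DMDD liposome, without overlap. The share was thus lower in every DMDD liposome library, Itgb2 being the chain that differed more. Itgam is among the 4 summed chains, and the split of its reads with Gm49368 is uncertain. For Itgax alone the ratio to Itgb2 was 0.404, 0.480 and 0.433 in model and 0.194, 0.251 and 0.189 in DMDD liposome, a gap wider than the spread of either group. The ratio of Itgb2 to Itgb4, which do not pair, was 0.364, 0.216 and 0.170 in model and 0.693, 0.711 and 0.660 in DMDD liposome. Its groups had to separate, since Itgb2 was higher and Itgb4 lower without overlap, so it adds nothing to those levels. By contrast, Itga6 over Itgb4 overlapped, at 0.369 ± 0.045 in model and 0.436 ± 0.070 in DMDD liposome, as did Lama3 over Lamb3, at 0.369 ± 0.048 and 0.364 ± 0.088. Alpha 4 and alpha E summed over Itgb7 also overlapped, at 0.597 ± 0.030 and 0.643 ± 0.151. With 3 libraries against 3 no exact permutation test of a ratio could go below 0.10, and none was run.

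**Figure D5:**
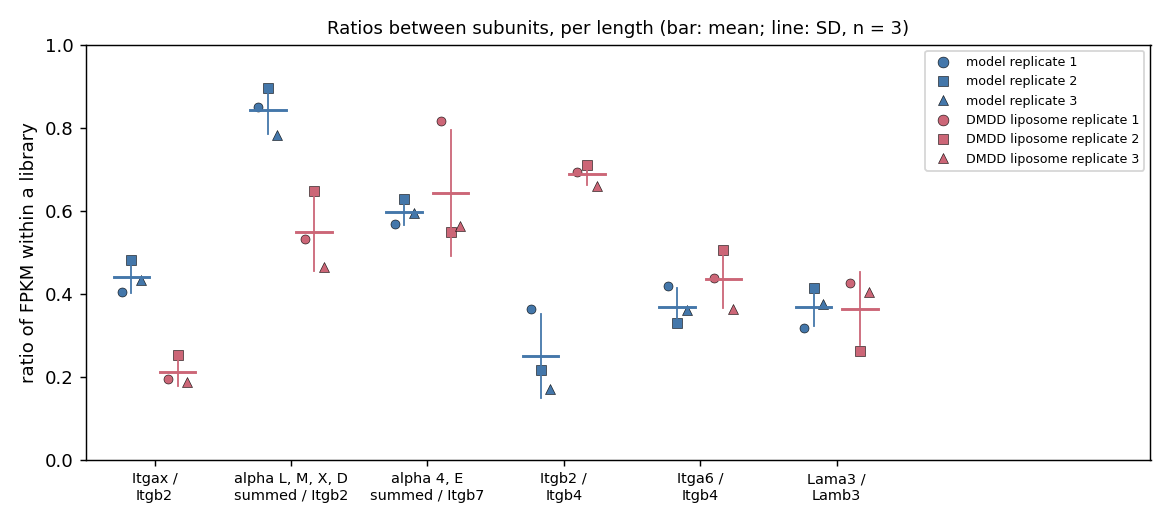
Ratios of FPKM between subunits within each library (linear axis from 0); symbols are libraries, bars group means and lines the SD over 3 libraries. The groups separate for Itgax over Itgb2, for the 4 alpha chains over Itgb2 and for Itgb2 over Itgb4, and overlap for the other 3 ratios. Itgb2 and Itgb4 do not pair, and the separation of their ratio follows from their levels.

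Genes that work with these chains were read from 6 lists. Of the receptors for laminin other than integrins, Dag1, which encodes dystroglycan, measured 292, 310 and 350 CPM in model against 226, 225 and 234 in DMDD liposome, without overlap. Its log2 fold change was -0.47 ± 0.10 (unadjusted p = 0.00217, adjusted p = 0.626 by edgeR; adjusted p = 0.0279 by DESeq2). Bcam, a receptor for laminin alpha 5, stood at 0.33 ± 0.16 and Rpsa, a ribosomal protein also described as a laminin receptor, at -0.07 ± 0.12. Of the 4 hemidesmosome partners 1 had an unadjusted p under 0.05 by edgeR, against 7.65% of all genes. This was Dst, which encodes a plakin linker, at a log2 fold change of -0.36 ± 0.14 (unadjusted p = 0.0351 by edgeR). It went to -0.22 without model replicate 1. Plec, which encodes plectin, stood at -0.68 ± 0.31 (-0.36 without model replicate 3) and the tetraspanin gene Cd151 at -0.21 ± 0.11. Col17a1, the collagen of the hemidesmosome, stood at -1.46 ± 0.76, which turned to 0.057 without model replicate 2. Col17a1 had 177 counts in model replicate 2, the library with skin genes, and 21 to 29 in the others.

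Of 9 tested basement membrane partners, 6 were higher and 3 lower. Their median log2 fold change of 0.096 ran from -0.11 to 0.36 over the fits without 1 library. By edgeR 1 of the 9 had an unadjusted p under 0.05, against 7.65% of all genes. This was Hspg2, which encodes perlecan. It measured 716 ± 73.2 CPM in model against 536 ± 82.1 in DMDD liposome, without overlap (log2 fold change -0.42 ± 0.15, unadjusted p = 0.0255 by edgeR). Col18a1 stood at -0.53 ± 0.24 and Ntn4, a netrin that binds laminin gamma chains, at 0.76 ± 0.36. Among ligands of leukocyte integrins, 5 of 7 tested were higher and 2 lower. Icam1, bound by the beta 2 integrins, measured 28.4, 20.0 and 19.1 CPM in model against 29.3, 35.5 and 41.0 in DMDD liposome (log2 fold change 0.65 ± 0.20, unadjusted p = 0.0126 by edgeR), with a narrow gap at model replicate 1. Vcam1, a ligand of alpha 4, measured 165, 129 and 119 CPM against 240.3, 159 and 401 CPM, at 0.96 ± 0.31 (unadjusted p = 0.0171 by edgeR), and DMDD liposome replicate 2 lay below model replicate 1. Cdh1, the E-cadherin that alpha E binds, stood at -0.72 ± 0.28 (unadjusted p = 0.0335 by edgeR) and measured 322, 560.0 and 752 CPM in model against 319.9, 308 and 364 CPM, with model replicate 1 at the level of DMDD liposome. Endothelial markers, 10 of 11 of them higher, summed to between 374 and 616 CPM in model and between 542 and 619 in DMDD liposome, and their part in the Icam1 and Vcam1 levels was not tested.

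The activators and adaptors that link integrins to actin had the median log2 fold change nearest to 0 of the 6 lists, at 0.03: by edgeR 0 of 19 tested had an unadjusted p under 0.05, where 7.65% of all genes did. Parvg and Fermt3, the parvin and kindlin of blood cells, stood at 0.63 ± 0.30 and 0.24 ± 0.15, and Parvb at 0.45 ± 0.27. Ilk, an adaptor that most cells need, was listed at 0 to 3 counts in a library, and its level is not interpreted here. Of the matrix ligands of RGD and tenascin receptors 8 of 9 were higher and 0 had an unadjusted p under 0.05 by edgeR. Spp1 (osteopontin) stood at 0.65 ± 0.33, Adam15 at 0.39 ± 0.17 and Tgfb1 at 0.22 ± 0.13.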

How the data were processed

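Tumor RNA of 3 model and 3 DMDD liposome samples was isolated in Trizol, and NEBNext Ultra reagents were used for the libraries, according to the labels' protocols. One table of 16763 genes covered all 6 samples. Its read counts are unnormalized, per the file headers. The authors also deposited a normalized signal (counts times a constant per sample) and FPKM. The length implied by FPKM, count and library total was checked only in the library with the highest count of each gene. There it was a whole number of bases, within 0.01 base, for all 16763 genes. The deposited log2 fold change is model over DMDD liposome, the reverse of the direction used here, and comes with deposited p-values and adjusted p-values. Build mm9 and DESeq2 are named in the submitters' processing notes; how reads were aligned, counted, annotated and assigned to a strand is not given in the sources used here. Exon overlaps come from GENCODE M21 (GRCm38), for names and shares only: 12 of 38 members share exon bases with another gene.

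The test used edgeR 4.0.16 under R 4.3.3 (filterByExpr with minimum count 10 and minimum total 15, TMM, quasi-likelihood test, two-sided, Benjamini-Hochberg over 12891 genes, threshold 0.05). Standard errors come from the quasi-likelihood F statistic, and log2 CPM used a prior count of 2. DESeq2 1.42.0, limma 3.58.1 (voom with sample quality weights), DESeq2 size factors, no filter, a replicate block, a threshold of 0.01 and leaving out each library were alternatives. In 1 data set simulated for DMDD liposome against model over 12891 genes, edgeR recovered 55% of genes changed 2-fold and 87% of those changed 4-fold. It made 11 false among 153 calls. DESeq2 recovered 65% and 92%, with 34 false among 191 calls. The share of false calls was above the threshold of 0.05 for both, and further above it for DESeq2. The simulated counts were drawn independently for each gene, with the spread that edgeR had estimated. They held no shift shared by many genes of a library, such as that of model replicate 1, so these shares may not hold for the real libraries. The symbol rule matched 39 rows, of which 1 is not reported here and is left out of all counts of members. Members and lists were chosen with earlier results of these data known, so no list was tested and no p was adjusted over a list. Per-library values are given for tested epithelial integrins, leukocyte integrins and laminin-332 chains, and for other members with an edgeR unadjusted p under 0.05 or a call by DESeq2 or the authors; of each partner list the 3 genes with the smallest p are named. Col17a1, Ilk, B230344G16Rik, Cerkl, Gm49368 and Gm42957 were added after their values or overlaps were seen, as were counts per library for Itga10, Itga11, Lamc3 and Itgb5.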

Additional observations from a re-analysis of the deposited data

How the results depend on the processing

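No setting gave edgeR a called gene except leaving out model replicate 1: counts of called genes ran from 0 to 112 over the edgeR fits without 1 library, and of called members from 0 to 2. DESeq2 called 59 genes and 3 members, and without 1 library between 18 and 867 genes (867 without model replicate 1, 30 without model replicate 2, 18 without model replicate 3, 20, 128 and 87 without DMDD liposome replicates 1, 2 and 3) and between 0 and 10 members (10 without model replicate 1, 2 without model replicate 2, 2 without DMDD liposome replicate 2 and 2 without DMDD liposome replicate 3). Of the members, Itga6 was called by DESeq2 in 4 of its 6 fits without 1 library. The median of the RGD-binding list ran from -0.061 to 0.51 and that of leukocyte integrin ligands from 0.21 to 0.52 over the fits without 1 library. For basement membrane partners it ran from -0.11 to 0.36 over the same fits. Without 1 library the log2 fold change changed sign in at least 1 edgeR fit for 9 of the 36 tested members (Itga1, Itgav, Itgb3, Itgb6, Itgbl1, Lama2, Lama4, Lamb1 and Lamb2) and in none for the other 27; Itgb6 ran from -0.96 to 0.075. The cause was not tested. Nothing in the labels says that replicate numbers pair samples, so the numbers were not treated as pairing. Deviations of same-numbered libraries correlated at 0.0876, 0.114 and 0.121. Each library correlated best with its own number, a hint from the data and not the design. With the replicate block edgeR called 0 genes and 0 members; the median of the laminin-332 chains was -0.97. In that fit 5 members were higher and 5 lower at an unadjusted p under 0.05 by edgeR. Over all 12891 genes it was 656 higher and 455 lower. By edgeR's quasi-likelihood test with the block, Itgb5 came under it (unadjusted p = 0.0183) and Lama3 above it (unadjusted p = 0.0638). Depth limits Itgad, Itgb2l and Itgb6, which lie near 3 counts or a few times that level. It also limits members with such counts in some libraries. Lamc3 had 4 counts in model replicates 2 and 3, and Itga11 and Itgbl1 had 6 in model replicate 1. Itgb8 had 12 in DMDD liposome replicate 3.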
